A study of Solanum lycopersicum with 6 samples.

Results

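The methylation of 9 genes of the tomato shoot meristem was followed through the methylation tables of embryos with a knockout of a subunit of RNA polymerase IV, where 40 of the 132092 listed regions were assigned to them. The genes were WUSCHEL, WOX4, WOX9 (also called S), LAM1, CLV3, TKN1, TKN2, TKN3 and TKN4, known meristem regulators that were matched to the tables by gene identifier, a rule that uses no methylation value. DNA came from nrpd1 embryos (a knockout of SlNRPD1) and from wild-type embryos of the cultivar Micro-Tom, at 21 days after flowering in both cases, and 3 bisulfite libraries were made from either genotype. NRPD1 is the catalytic subunit of polymerase IV, which makes the precursors of the small RNAs that guide DNA methylation. The labels do not say how the knockout was made, how many lines it represents or whether replicate libraries are from different plants. Bisulfite sequencing reads the share of cytosines that stay methylated, and the authors listed the regions where this share differed, separately for the CG, CHG and CHH contexts (H is A, C or T). Every level below is the authors' mean for a genotype, in percent, and every difference is nrpd1 minus wild type in percentage points. Single libraries and read depth are not in these tables, so no error, interval or test can be attached to a level.

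The shoot meristem is laid down in the embryo and holds the stem cells from which the shoot grows. WUSCHEL is a homeodomain transcription factor that keeps these cells undifferentiated, and the small secreted peptide made from CLV3 holds WUSCHEL expression in check. WOX4, WOX9 and LAM1 belong to the same WUSCHEL-related homeobox (WOX) family, and the TKN genes encode class I KNOX homeodomain proteins, which keep meristem cells from differentiating and in tomato also act in the compound leaf. Polymerase IV acts mostly at transposon remnants, many of which lie beside genes, and CHH methylation is the context that depends on it most directly.

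In nrpd1 embryos, 38 of the 40 regions were less methylated than in wild type, and the other 2, both in CG inside TKN2, were more methylated. The losses comprised 25 regions in CHH, 8 in CHG and 5 in CG. All 25 CHH regions and all 8 CHG regions were lower in nrpd1, but so were 95.8% of all listed CHH regions and 88.0% of all listed CHG regions, so these directions did not set the meristem genes apart. In CG, 5 of 7 regions were lower, against 67.7% of all listed CG regions, and 2 of 7 were higher, against 32.3%. Of the 9 genes, 8 had at least 1 region, and CLV3 had none in any context.

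**Figure D1:**
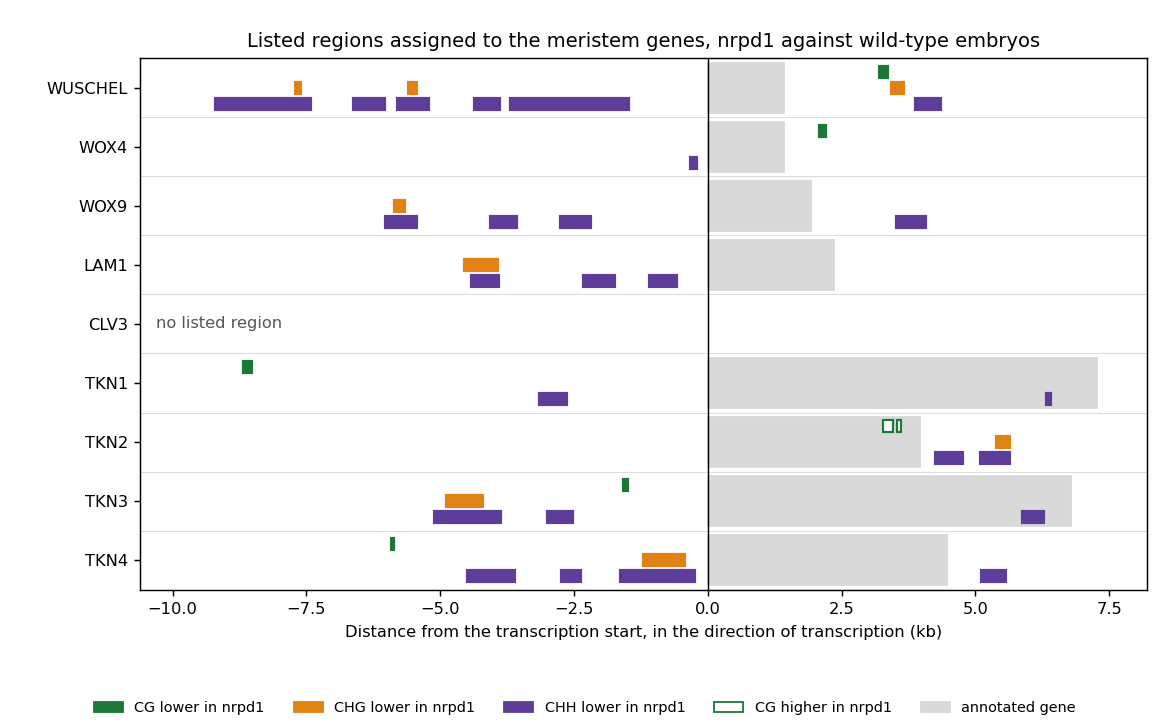
Positions of the 40 regions, with 1 row per gene; the horizontal axis is the distance from the transcription start in kb, in the direction of transcription, and grey boxes are the annotated genes. Filled boxes are regions lower in nrpd1 and open boxes are the 2 CG regions higher in nrpd1, which both lie inside TKN2; most CHH losses (18 of 25) lie upstream, and the WOX genes have no region inside the gene.

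The regions lay mostly outside the genes, as did listed losses in general. Here upstream and past the end name the side of the assigned gene, at any distance. Of the 25 CHH losses, 18 were upstream of the transcription start, against 60.9% of all listed CHH losses, and 5 were past the end of the gene, against 27.3%. The other 2 were in introns of TKN1 and TKN3. Exons held 0 of the 25 CHH losses and 0 of the 8 CHG losses, and over all listed losses they held 3.41% in CHH and 3.93% in CHG. The authors' annotation placed 5 of the 25 CHH losses in promoters, a class given to regions whose nearest edge is within 2 kb of the transcription start, against 32.7% of all listed CHH losses. Distal intergenic sequence held 17 of the 25 (68.0%, against 57.4% of all CHH losses) and 7 of the 8 CHG losses (87.5%, against 55.1%). All 38 losses lay within 10 kb of the start of their gene, as did 82.3% of all listed CHH losses, 85.4% of the CHG losses and 86.5% of the CG losses.

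Counted by gene, 7 of the 9 had a CHH loss in the promoter, in the gene body or in the 300 bp after the gene, and WOX9 and CLV3 did not. The share among the 27473 genes named anywhere in the tables was 74.4%, so a CHH loss near the gene is common in the background. CHG losses near the gene were listed for 1 of the 9 (TKN4), against 44.8% of the named genes, and CG losses for 1 of the 9 (TKN3), against 13.8%. When distal regions were counted as well, CHH losses were assigned to 8 of the 9 (background 90.9%), CHG losses to 6 (background 67.3%) and CG losses to 5 (background 25.2%). WUSCHEL, TKN3 and TKN4 had losses in all 3 contexts, as had 20.2% of the named genes. CLV3 is not among the named genes, because the tables name only genes that received a region. The background shares therefore leave out genes without a region and are higher than shares of all genes would be. The counts over 9 genes include CLV3. A group of 9 genes is too small to read a departure from these shares.

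In points, the median losses were close to those of listed losses in general, while the median levels were lower in both genotypes in each context. The 25 CHH regions had a median level of 5.92% in nrpd1 and 22.3% in wild type, and a median difference of -16.2 points, against -15.7 for all listed CHH losses, whose median levels were 8.00% in nrpd1 and 25.1% in wild type. The median share of the wild-type level that was left was 29.0%, against 32.0% for all listed CHH losses. In the 8 CHG regions the median level was 28.6% in nrpd1 and 56.7% in wild type, and the median difference was -29.0 points, against -27.9 over all CHG losses, whose median levels were 34.7% in nrpd1 and 67.9% in wild type. The median share left was 50.9%, against 52.6%. In the 5 CG losses the median level was 26.1% in nrpd1 and 51.8% in wild type, and the median difference was -26.2 points, against -25.9. Over all listed CG losses the median level was 44.1% in nrpd1 and 74.7% in wild type. The median share left was 49.0% in the 5 CG losses, against 60.8% over all CG losses. In wild type 4 of the 5 were below 74.7%, the exception being TKN1.

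**Figure D2:**
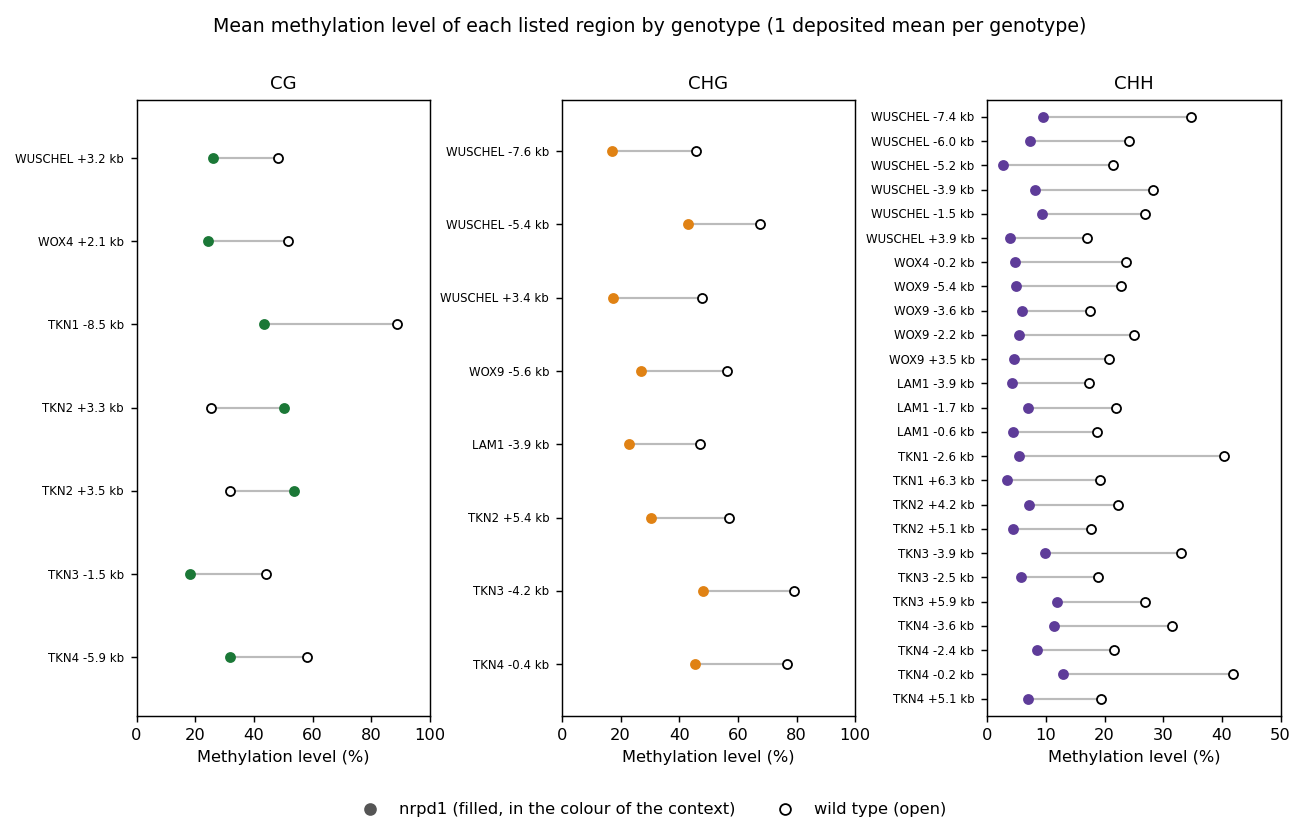
Methylation level in percent of each of the 40 regions, in 1 panel per context; filled points are the authors' means in nrpd1, open points those in wild type, and each label gives the gene and the distance from its transcription start (the CHH axis ends at 50%). CHH levels in nrpd1 lie between 2.67% and 13.0%, below the lowest wild-type level of 17.0%, and the 2 TKN2 regions in CG are the ones with the filled point on the right.

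WUSCHEL (Solyc02g083950, chromosome 2, 45191157 to 45192582 in build SL4.0) had the most assigned regions, with 10 in all and none inside the gene. Its upstream side was lined by 5 CHH losses between 1469 and 9207 bp from the transcription start, and together they covered 5702 bp of a stretch of 7739 bp (73.7%). The region nearest to the gene, 2221 bp wide with 420 CHH cytosines (45194051 to 45196271), had a level of 9.33% in nrpd1 and 26.9% in wild type. The farthest one, 1791 bp wide with 383 cytosines (45199999 to 45201789), had 9.56% in nrpd1 and 34.8% in wild type. Its difference of -25.2 points was greater in size than 91.6% of all listed CHH losses. Both are much wider than the median CHH loss of 635 bp.

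The 3 regions between these ran from 493 to 602 bp in width and had 2.67% to 8.22% in nrpd1 and 21.5% to 28.3% in wild type. The one at 5205 bp upstream was left with 12.4% of its wild-type level, the smallest share among the 25 CHH losses. Of the upstream CHH losses, 2 contained a CHG loss. At 5434 bp upstream the CHG level was 43.0% in nrpd1 and 67.6% in wild type, and at 7599 bp it was 17.0% in nrpd1 and 45.6% in wild type.

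On the other side of WUSCHEL, 3 losses in the 3 contexts lay in a row without overlap. The first, a CG region of 4 cytosines that began 1783 bp past the annotated end of the gene, had 26.1% in nrpd1 and 48.2% in wild type. The CHG region came 60 bp further on, with 17.6% in nrpd1 and 47.9% in wild type. The CHH region followed after 206 bp, with 3.81% in nrpd1 and 17.0% in wild type. Sequence downstream of WUSCHEL is where the tomato locule number allele lc maps, and whether these regions touch the lc sites was not examined. At least as many CHH losses as WUSCHEL had (6 or more) were assigned to 3090 of the named genes, or 11.2%.

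CLV3 (Solyc11g071380) had no assigned region in CG, CHG or CHH. The genes with the neighbouring identifiers, Solyc11g071370 and Solyc11g071390, had 3 and 2 regions. The tables give a gene's position only with its regions, so the distance from CLV3 to those regions could not be measured. Absence from the lists does not show that methylation there was equal in the genotypes.

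WOX4 (Solyc04g078650, chromosome 4, 61327271 to 61328698), known for its role in the vascular cambium, had the fewest assigned regions of the genes that had any. A CHH loss of 128 bp with 18 cytosines lay 201 bp upstream of its start, with 4.75% in nrpd1 and 23.7% in wild type. It was the CHH loss nearest to a transcription start among these genes, and it was narrower than nearly all listed CHH losses (1.95% were narrower still). A CG loss of 9 cytosines lay 646 bp past the end of the gene, with 24.3% in nrpd1 and 51.8% in wild type.

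WOX9 (Solyc02g077390, chromosome 2, 40324933 to 40326867), mutants of which form compound, highly branched inflorescences, had 4 CHH losses, all of them distal. The nearest lay 2185 bp upstream, just outside the 2 kb promoter, with 5.45% in nrpd1 and 25.0% in wild type, and its difference of -19.5 points was the largest of the 4. The region 3570 bp upstream had 5.92% in nrpd1 and 17.6% in wild type, and its difference of -11.7 points was the smallest among the 25 CHH losses. At 5428 bp upstream the CHH level was 4.90% in nrpd1 and 22.8% in wild type. That region contained the only CHG loss of WOX9, with 26.9% in nrpd1 and 56.3% in wild type. The last CHH region began 1578 bp past the end of the gene, with 4.54% in nrpd1 and 20.8% in wild type.

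LAM1 (Solyc03g118770, chromosome 3, 62042840 to 62045203), whose tobacco counterpart is needed for the leaf blade to grow out, had all of its regions upstream. Its 3 CHH losses began 571, 1731 and 3898 bp from the start, and all but the farthest were annotated to the promoter, although the middle one extended to 2339 bp. The nearest had 4.42% in nrpd1 and 18.7% in wild type, the middle one 6.96% in nrpd1 and 21.9% in wild type, and the farthest 4.29% in nrpd1 and 17.4% in wild type. Their differences spanned a narrow range, with -13.1 points at the smallest and -14.9 at the largest. A CHG loss of 30 cytosines coincided with the farthest one, with 23.0% in nrpd1 and 47.2% in wild type. Its difference of -24.2 points was the smallest of the 8 CHG losses.

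Among the KNOX genes, TKN1 (Solyc04g077210, chromosome 4, 60124504 to 60131770) had the largest CHH and CG losses of the whole group. At 2636 bp upstream (60121358 to 60121868, 104 cytosines) the CHH level was 5.47% in nrpd1 and 40.4% in wild type. The difference of -35.0 points was greater in size than 99.6% of all listed CHH losses, and 13.5% of the wild-type level was left. At 8511 bp upstream the CG level, over 6 cytosines, was 43.5% in nrpd1 and 88.7% in wild type. That difference of -45.2 points was greater in size than 95.9% of all listed CG losses. The other CHH region, in intron 4, was 81 bp wide with 9 cytosines, and had 3.32% in nrpd1 and 19.2% in wild type.

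TKN2 (Solyc02g081120, chromosome 2, 43175431 to 43179388), the KNOX gene whose overexpression gives the over-divided leaves of the Mouse ears mutant, was the one gene in the group with gains. Both gains were in CG near the 3′ end of the gene. In intron 3 (43178713 to 43178893, 9 CG cytosines) the level was 50.4% in nrpd1 and 25.5% in wild type, a difference of 24.9 points. In exon 4 (43178967 to 43179035, 11 cytosines), 73 bp further on, it was 53.6% in nrpd1 and 31.8% in wild type, a difference of 21.8 points. These are moderate gains. The median was 26.4 points over all listed CG gains and 24.6 points over those in promoter or body. A CG gain in the promoter or body was listed for 4.98% of the named genes, and one in an exon or intron for 2.29%.

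The CHH and CHG regions of TKN2 were lower in nrpd1 and lay past the end of the gene. The first CHH loss began 293 bp past the end, with 7.16% in nrpd1 and 22.3% in wild type, and the second 1125 bp past it, with 4.48% in nrpd1 and 17.8% in wild type. The second contained a CHG loss, with 30.3% in nrpd1 and 57.1% in wild type. TKN2 had no assigned region upstream. Among regions assigned to other genes, the nearest upstream one lay 7355 bp from the TKN2 start. Of the 3209 named genes with a CG gain, 84.7% also had a CHH loss, against 90.9% of all named genes. Having both is thus usual. A gene is named only if it received a region, and a CHH loss is itself a way to be named, which raises the 90.9%. Genes with a CG gain are named without needing a CHH loss. The shares therefore cannot show whether a CHH loss is more or less common at genes with a CG gain.

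**Figure D3:**
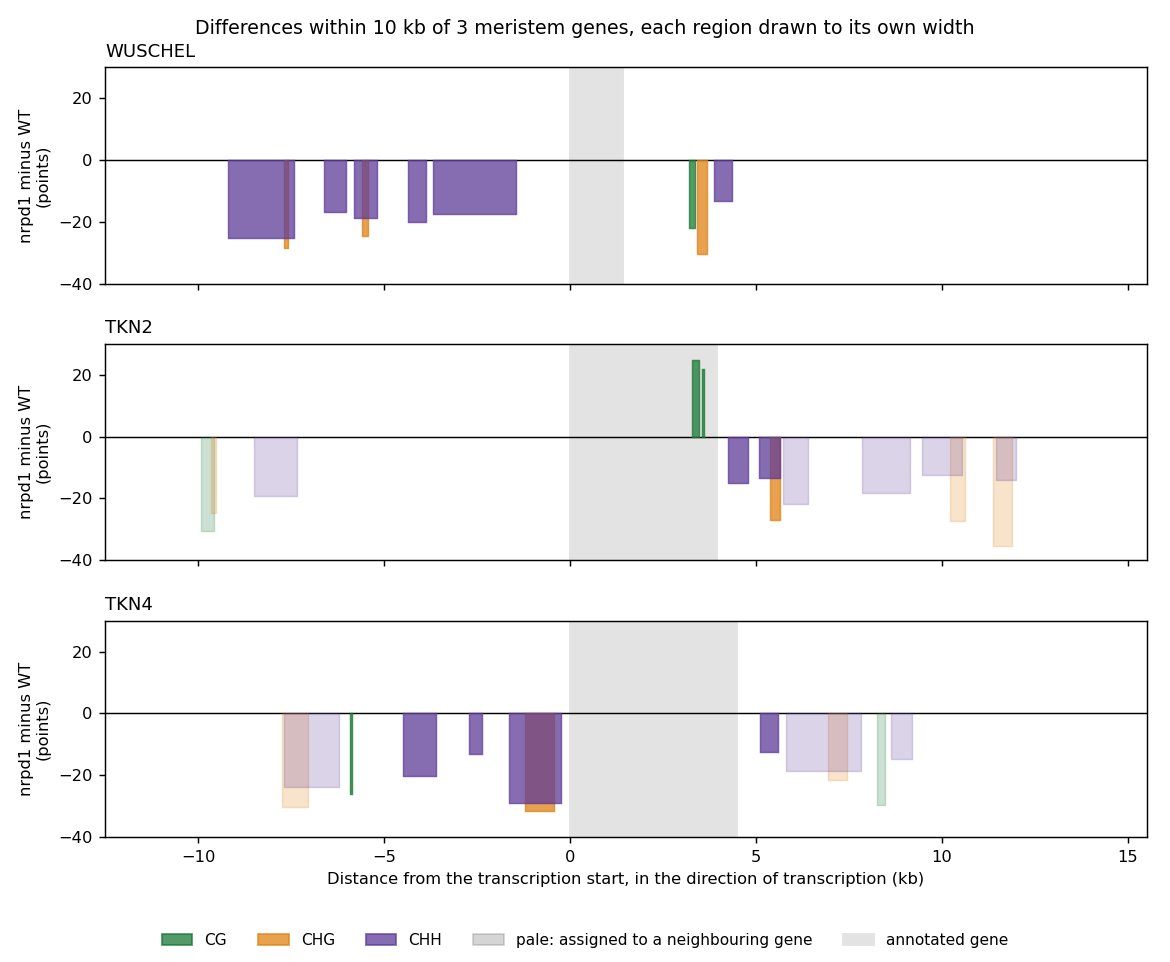
Difference in methylation, nrpd1 minus wild type, in percentage points for each listed region within 10 kb of WUSCHEL, TKN2 and TKN4; the horizontal axis is the distance from the transcription start in kb, colours are contexts, and pale boxes are regions assigned to a neighbouring gene. WUSCHEL is flanked by losses on both sides, the TKN2 gains of 24.9 and 21.8 points stand inside the gene with losses past its end, and the TKN4 losses reach to 238 bp from its start.

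TKN3 (Solyc05g005090, chromosome 5, 133205 to 139997) was the one gene with a CG loss in its promoter. That region of 4 cytosines, 1496 bp upstream, had 18.4% in nrpd1 and 44.2% in wild type. Both of its upstream CHH losses lay beyond the promoter. The nearer, at 2525 bp, had 5.74% in nrpd1 and 18.8% in wild type, and the farther, at 3870 bp, had 9.94% in nrpd1 and 33.0% in wild type. The farther one was 1243 bp wide and enclosed a CHG loss of 26 cytosines with 48.1% in nrpd1 and 79.2% in wild type. In intron 3 a CHH loss had 11.9% in nrpd1 and 26.9% in wild type. The 44.2% of the wild-type level left there was the largest share among the 25 CHH losses.

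TKN4 (Solyc01g100510, chromosome 1, 82778067 to 82782545) had the largest promoter loss of the group. The CHH region from 238 to 1636 bp upstream (82782783 to 82784181, 329 cytosines) had 13.0% in nrpd1 and 41.9% in wild type. Its difference of -29.0 points was greater in size than 95.8% of the CHH losses listed outside distal intergenic sequence. The same stretch held the only promoter CHG loss of the group, with 45.3% in nrpd1 and 76.8% in wild type over 21 cytosines, and its difference of -31.6 points was the largest of the 8 CHG losses. Further upstream, CHH losses at 2359 and 3603 bp had 8.44% and 11.3% in nrpd1, against 21.6% and 31.4% in wild type. A CHH loss 620 bp past the end of the gene had 6.98% in nrpd1 and 19.5% in wild type. The CG loss of TKN4, 5863 bp upstream, had 31.8% in nrpd1 and 58.0% in wild type.

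**Figure D4:**
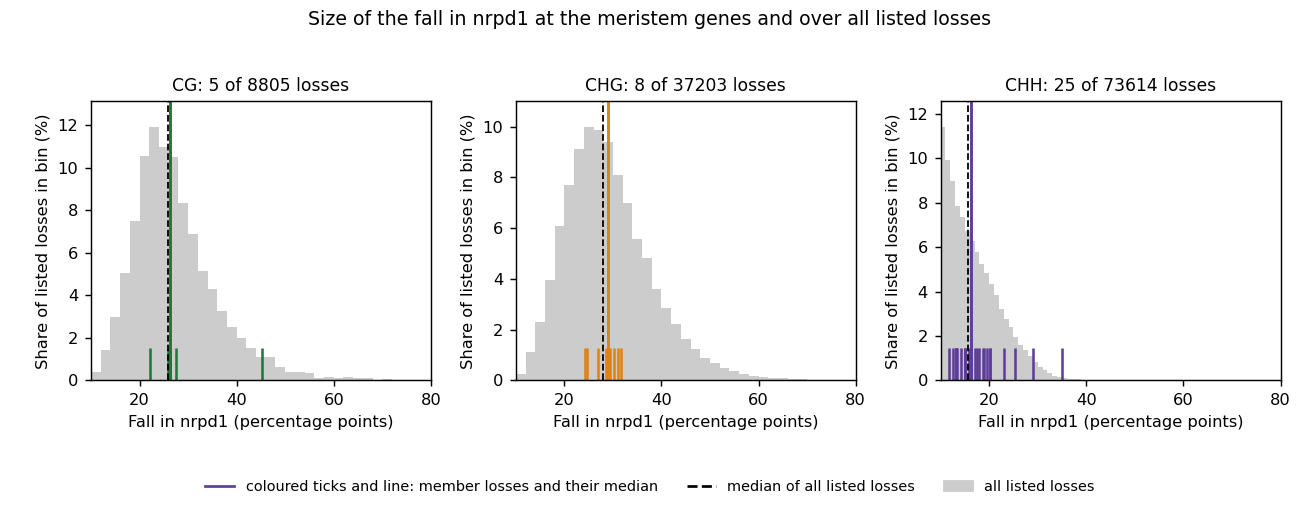
Size of the fall in nrpd1 in percentage points for the losses of the meristem genes (coloured ticks, with their median as a coloured line) and for all listed losses (grey histogram, in percent of losses per bin, with their median dashed), in 1 panel per context. The medians lie close together, and single regions, the CHH and CG losses upstream of TKN1, lie far to the right.

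The 2 families overlapped in the share of the wild-type CHH level that was left. The 14 CHH losses of the WOX genes had a median difference of -17.3 points and were left with a median of 24.1% of the wild-type level. The 11 CHH losses of the KNOX genes had a median difference of -15.1 points and were left with 30.9%. The shares left ran from 12.4% to 34.7% in the WOX genes and from 13.5% to 44.2% in the KNOX genes. Regions of 1 gene come from the same libraries and neighbouring sequence, so this comparison was not tested.

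Overlap between contexts was counted next. A CHH loss shared at least 1 bp with 7 of the 8 CHG losses, against 75.7% of all listed CHG losses, and the exception was the region past the end of WUSCHEL. A CHH loss met 0 of the 5 CG losses, against 45.8% of all listed CG losses, and still 0 when regions within 200 bp were counted. The CG losses were short, from 59 to 180 bp with 4 to 11 cytosines, so each rests on few sites. Counts of 8 and 5 regions are too small to read a departure from these shares.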

How the data were processed

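Bisulfite libraries of nrpd1 and wild-type embryos (3 each) were processed by the authors. Per the submitters' processing notes, their tools included Bismark 0.24.0 and Trim Galore 0.6.7. No source used here gives the region caller, its thresholds, the annotation tool, the bisulfite conversion rate or the depth. Incomplete conversion would raise apparent methylation. The authors deposited the level of each region as a fraction per genotype, per the file headers, and fractions are printed here as percentages. Differences were recomputed from these fractions and equalled the deposited ones in all regions (tolerance 1e-08). A deposited score, the authors' region statistic, was used only as a filter. No listed region had under 4 cytosines, a width under 50 bp or a difference under 10.0 points. Positions are in SL4.0, per the file headers.

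Regions were taken by assigned gene identifier. Promoter or body means any class except distal intergenic, including the class within 300 bp downstream. Percentiles rank the size of a difference among listed regions of the same context and direction. The one for the TKN4 promoter was ranked only among such regions outside distal intergenic sequence. No test was run, since the tables hold 1 mean per genotype. Members and settings were chosen with earlier results of these data known. All 9 genes are named, each with its largest and nearest region per context. Gene names come from the member list. The RefSeq table at hand (assembly SLM_r2.1) holds no identifiers of the kind used in the tables, so a planned list of further pathway genes was not used, and no sequence was printed because none was at hand. Calculations were checked on simulated regions. Python 3.11.15, pandas 2.3.3, NumPy 2.4.6 and matplotlib 3.10.9 were used.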

Additional observations from a re-analysis of the deposited data

How the results depend on the processing

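With a minimum of 20 points, 6 CHH losses remained of 25, their median difference was -24.2 points by construction, and 1 gene (TKN4) kept a CHH loss in promoter or body, while all CHG and CG losses passed. With distal regions left out there were 8 CHH, 1 CHG and 1 CG losses. With at least 10 cytosines, 5 CHG losses, 1 CG loss and 1 CG gain were counted. With the authors' statistic above the median of its table, 9 CHH, 3 CHG and 0 CG losses and 0 CG gains were counted. Counting any loss within 10 kb of the transcription start in place of promoter or body gave 6 genes with a CHG loss and 5 with a CG loss. Counting every region within 10 kb of a gene, whatever gene it was assigned to (chosen after seeing the data), gave 47 CHH, 19 CHG and 11 CG losses. The other 36 of 54 alternative values stayed within 1.5 times the reported count, or within 1 SD over the member regions for a median. The sign of these medians is fixed, since they are taken over losses. No paired analysis was possible because each table holds 1 mean per genotype, and for the same reason no library could be left out. Depth is unknown, so no precision can be given for any level.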

Other observations

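The sequence around the meristem genes held more listed regions than were assigned to them. Within 10 kb of the 8 genes with known positions lay 39 further regions assigned to neighbouring genes, 22 in CHH, 11 in CHG and 6 in CG. All 39 were lower in nrpd1, as were 95.8% of all listed CHH regions, 88.0% of CHG and 67.7% of CG regions. Around LAM1 there were 5 such CHH regions, around TKN2 5, around WOX9 4 and around WUSCHEL 0. LAM1 also had 3 in CHG and 3 in CG nearby, while TKN1 had only 1 in any context, a CHH region. Counted by position in this way, WUSCHEL no longer had the most regions, nor WOX4 the fewest. The largest of the CHH losses assigned to neighbours lay between 7648 and 8767 bp upstream of LAM1, with 15.0% in nrpd1 and 47.5% in wild type. At WOX4 the nearest CHG losses, at 7957 and 9698 bp upstream, were assigned to a neighbour, with 65.7% and 28.7% in nrpd1, against 89.2% and 64.0% in wild type.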
